A study of Homo sapiens with 12 samples.

Results

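MITF knockdown on its own, without interferon gamma (IFNγ), was examined in 624Mel cells, an established human melanoma line. The comparison held 6 of the 12 libraries of the series, chosen by the treatment in their labels: 3 libraries of cells transfected with a control siRNA (siCTRL, Silencer Select Negative Control No. 1) and 3 of cells transfected with a single siRNA against MITF (siMITF). None of these 6 cultures received IFNγ. The other 6 libraries, with the same siRNAs and 5 ng/mL IFNγ for the last 24 h of a 48 h transfection, served here as a repeat of the knockdown in separate libraries, and entered the same limma fit, so that they share in its estimate of the spread. Expression was tested for 12424 of the 40173 gene IDs in the table, those averaging 2 TPM or more in siCTRL or siMITF libraries. TPM gives a gene's share of all transcripts, and the values of the 6 libraries summed to between 975336 and 982254. The main fit did not rescale them to one total. All results come from 1 cell line and 1 siRNA against MITF, and a transient knockdown leaves a part of the transcript in place.

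MITF is the transcription factor that sets melanocyte identity. It binds E-box motifs in DNA and activates the enzymes of melanin synthesis, the proteins of the melanosome, and genes of survival, metabolism and lysosome function. Melanoma cells that lose MITF activity are described as dedifferentiated, a state associated with neural crest, adhesion, migration and inflammatory genes, while the related factors TFEB and TFE3 bind a similar motif.

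MITF itself (ENSG00000187098, chromosome 3 from 69739456 to 69968336, GRCh38) had 187, 229 and 217 TPM in the siCTRL libraries and 36, 49.7 and 41.7 TPM in the siMITF libraries, so all 3 siMITF libraries lay below all 3 siCTRL libraries. The melanocytic markers MLANA, PMEL and DCT were present in the siCTRL libraries at means of 475, 4827 and 244 TPM, and SOX10, a neural crest and melanocyte factor, had 223, 235 and 219.7 TPM in siMITF libraries. The 19 genes of the pigment list are not followed further: 15 of them passed lower and 0 higher by limma, also at an unadjusted p under 0.05. In bulk RNA, fewer cells of a kind and less RNA per cell cannot be told apart.

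The 6 libraries held from 11850 to 12253 genes with at least 2 TPM, and correlations between libraries ran from 0.955 to 0.995. Mitochondrial genes took 7.42% to 14.8% of TPM in siCTRL and 10.1% to 14% in siMITF libraries. Replicate 2 had the lowest mitochondrial share in both groups. It also had the lowest with IFNγ, at 8.45% in siCTRL and 12.7% in siMITF libraries. TPM keep no read numbers, so the depth behind a value is unknown and no counting interval is given. Changes are differences of mean log2(TPM + 1) from limma, their p-values were adjusted (Benjamini-Hochberg) across the 12424 IDs, and their standard errors had a median of 0.12. Sizes of change without another unit are log2 fold changes, in brackets where they follow the group means in TPM. A gene is said to have passed, and to have risen or fallen, at an adjusted p under 0.05, and to have changed when the log2 fold change was also at least 1 in size. A pseudocount of 1 understates the change of genes near 0 TPM. The study's methods give all experiments independent biological replicates, while the labels only number the 3 libraries of a group, so p-values measure the spread between these libraries, part of which may be technical. With 3 against 3 the smallest p of an exact two-sided permutation test is 0.1.

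MITF knockdown moved genes in both directions. At the adjusted p alone, 2666 genes rose (21.5% of those tested) and 1747 fell (14.1%), and 411 rose (3.31%) and 368 fell (2.96%) at least 2-fold. Fitted on the 6 libraries without IFNγ alone, 3560 rose and 2268 fell, with 416 and 372 at least 2-fold. The 3 siMITF libraries lay entirely on one side of the 3 siCTRL libraries for 775 of these 779 changed genes and for 55.5% of all tested genes. The genes that rose started low, with a median of 4.05 TPM in siCTRL libraries, and 147 of the 411 were under 2 TPM there, so they entered the test through their siMITF level. The genes that fell started at a median of 29.1 TPM, above the 20.2 TPM of all tested genes. On the log2(TPM + 1) scale 44 rises and 63 falls were at least 2 in size, and 6 rises and 15 falls at least 3, an order that the pseudocount affects because it shrinks changes of low genes. In the plot of level against change the rising genes are dense on the left, while abundant genes such as FTH1 and CAPN3 are among those that fell.

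**Figure D1:**
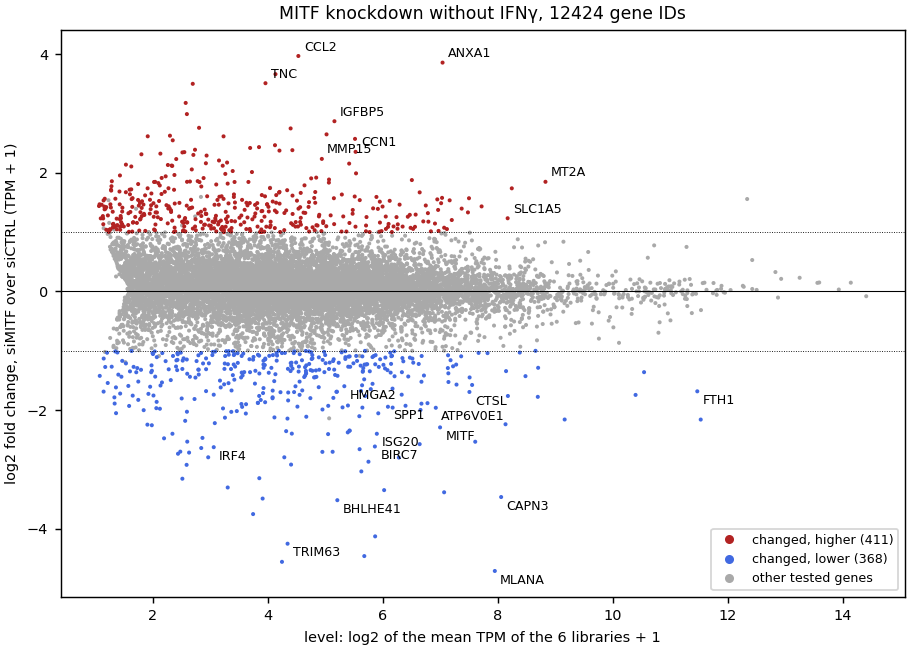
Each point is 1 of 12424 tested gene IDs, with its level (log2 of the mean TPM of the 6 libraries plus 1) on the x axis and its log2 fold change, siMITF over siCTRL, on the y axis; red and blue points are the 411 and 368 genes that changed at least 2-fold, and dotted lines mark that limit. CCL2 and ANXA1 rose the most among labelled genes, and MLANA fell the most.

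The 4 largest rises outside the pigment genes were in CCL2, ANXA1, DKK1 and TNC. CCL2 (ENSG00000108691, chromosome 17 from 34255274 to 34257208), a chemokine that attracts monocytes, had 1.46, 2.07 and 1.79 TPM in the siCTRL libraries and 45.9, 45.8 and 35.9 TPM in the siMITF libraries, a change of 3.97 on the log2 scale ± 0.14 (standard error; adjusted p = 1.2e-09, limma). ANXA1 (ENSG00000135046, chromosome 9 from 73151865 to 73170393), a calcium-dependent membrane-binding protein, had 12.9, 22.9 and 13.6 TPM in the siCTRL libraries and 254, 248 and 232 TPM in the siMITF libraries, which gave 3.86 ± 0.2 (adjusted p = 1.7e-08, limma). Both were near-absent to moderate in control cells and abundant after knockdown, with no overlap between groups. DKK1 (ENSG00000107984, chromosome 10 from 52314281 to 52318042), a secreted inhibitor of WNT co-receptors, had 0.986, 1.94 and 1.89 TPM in the siCTRL libraries and 32, 33.5 and 29.1 TPM in the siMITF libraries and a log2 fold change of 3.66. TNC (ENSG00000041982, chromosome 9 from 115019575 to 115118207), the matrix glycoprotein tenascin-C, had 1.17, 1.86 and 1.53 TPM in the siCTRL libraries and 25.3, 28.6 and 29.1 TPM in the siMITF libraries and a log2 fold change of 3.51. IGFBP5 (ENSG00000115461, chromosome 2 from 216672105 to 216695549), a binding protein for insulin-like growth factors, had 7.01, 7.89 and 7.91 TPM in the siCTRL libraries and 58.2, 66.1 and 61.6 TPM in the siMITF libraries and rose by 2.87. All siMITF libraries of DKK1, TNC and IGFBP5 exceeded all siCTRL libraries. MIA, a secreted protein of melanoma and cartilage, had 11.9, 12.7 and 12 TPM in the siCTRL libraries and 77.7, 76.6 and 78.2 TPM in the siMITF libraries (log2 fold change 2.57).

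Several others among the 20 largest rises were under 1 TPM in siCTRL libraries. LRRC55, an auxiliary subunit of potassium channels, had 0.0517, 0.0674 and 0.0316 TPM in the siCTRL libraries and 10.5, 12.2 and 10.1 TPM in the siMITF libraries (log2 fold change 3.5). CASS4, a focal adhesion scaffold of the p130Cas family, had 0.144, 0.256 and 0.15 TPM in the siCTRL libraries and 9.0, 10.7 and 9.49 TPM in the siMITF libraries (3.18). RAB3B and UNC13A, which act in the docking and priming of secretory vesicles, went from means of 0.347 to 9.74 TPM and 0.0572 to 5.49 TPM, and SCG3, a granin of secretory granules, from 1.14 to 10.2 TPM. HOMER2, a postsynaptic scaffold, PEX5L, a regulator of HCN channels, and DACT1, a modulator of WNT signalling, rose by 2.62, 2.55 and 2.43. ZAP70, a kinase best known from T cells, had 2.92, 3.37 and 2.94 TPM in the siCTRL libraries and 22.5, 21.2 and 18.9 TPM in the siMITF libraries and rose by 2.42. Also among the 20 were NANOS1, an RNA-binding protein, with 2.65, S100A4 with 2.47, and SAMD5, ZNF385C and KRTAP22-2 with 2.76, 2.75 and 2.63.

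Among the falls outside the pigment genes, several came from high levels. By the ratio of mean TPM, without a pseudocount, TRIM63 was 36.6-fold lower and DENND2D 28-fold lower, while CCL2 was 24-fold, UNC13A 95.9-fold and LRRC55 218-fold higher. TRIM63 (ENSG00000158022, chromosome 1 from 26051301 to 26068436), the muscle ubiquitin ligase MuRF1, had 36.5, 39.4 and 37 TPM in the siCTRL libraries and 0.955, 1.17 and 0.953 TPM in the siMITF libraries, a change of -4.25 ± 0.12 (standard error; adjusted p = 2.1e-10, limma). BHLHE41 (ENSG00000123095, chromosome 12 from 26120030 to 26125037), a circadian transcriptional repressor, had 62.5, 74.5 and 64.1 TPM in the siCTRL libraries and 4.13, 7.13 and 3.96 TPM in the siMITF libraries and a log2 fold change of -3.52. DENND2D, an exchange factor for RAB GTPases, had 26.4, 24.1 and 21.5 TPM in the siCTRL libraries and 0.673, 1.13 and 0.765 TPM in the siMITF libraries (-3.75). In siMITF libraries TRIM63 and DENND2D were near or under 1 TPM, while BHLHE41 stayed above 2 TPM. CAPN3 (ENSG00000092529, chromosome 15 from 42359498 to 42412949), a calcium-dependent protease shared with muscle, fell from an abundant level, with 506, 478 and 480.1 TPM in the siCTRL libraries and 40.1, 47.5 and 42.3 TPM in the siMITF libraries (-3.47). GABRP, a subunit of GABA-A receptors, had 127, 108 and 117 TPM in the siCTRL libraries and 9.34, 14.1 and 9.0 TPM in the siMITF libraries (-3.35), and VEPH1 had 94.7, 95.9 and 90.7 TPM in the siCTRL libraries and 10.8, 14.3 and 11 TPM in the siMITF libraries (-2.87). ABCB5, a membrane transporter described in melanoma subpopulations, had 9.55, 10.3 and 9.06 TPM in the siCTRL libraries and 0.27, 0.394 and 0.553 TPM in the siMITF libraries (-2.92). ESRP1, an epithelial splicing regulator, fell (-2.74), as did SLC37A2, a sugar phosphate exchanger (-2.92), and ATOH8, a transcription factor (-2.8). GAGE13 and GAGE12G, cancer-testis genes whose copies are nearly identical, so that the division of reads between them is uncertain, had -4.46 and -4.13. LRRK1, MS4A15, TTC39A and PRDM7 had log2 fold changes of -2.8, -3.49, -2.71 and -2.72.

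**Figure D2:**
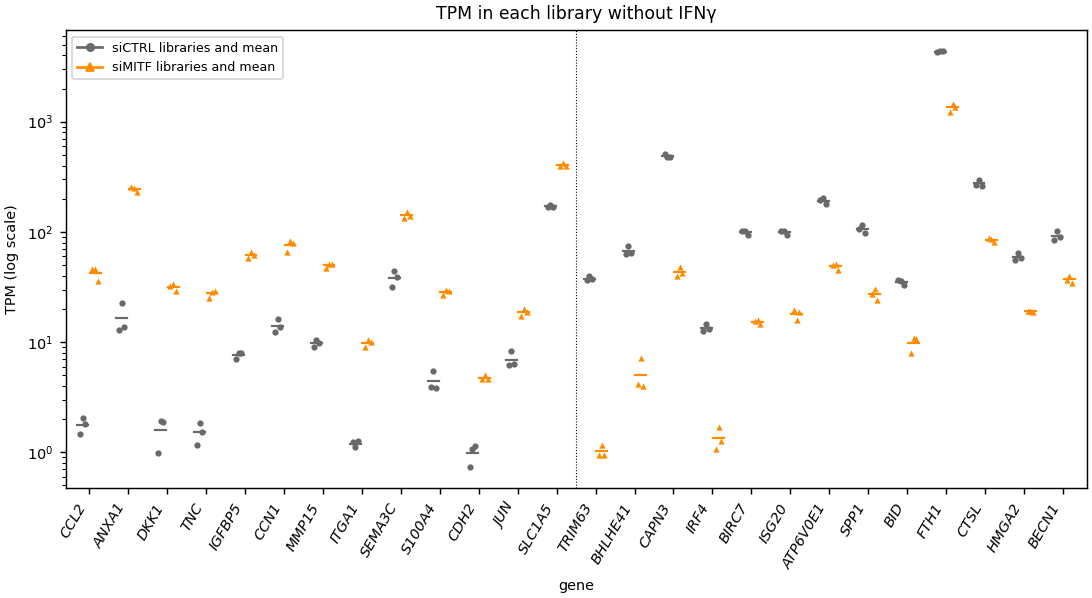
TPM on a log scale (y axis) in each library without IFNγ for 13 genes that rose (left of the dotted line) and 13 that fell (right); grey circles are siCTRL and orange triangles siMITF libraries, and bars are means of 3 libraries. In every gene shown the 2 groups are separate, with CCL2 between 1.46 and 2.07 TPM in siCTRL and between 35.9 and 45.9 TPM in siMITF libraries.

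MITF recognises E-box motifs, among them CACGTG and TCATGTG, while TGACTCA is the site of AP-1, the dimer of JUN and FOS proteins. These 3 motifs were searched on both strands of the RefSeq promoters (GRCh38.p14, 250 bases before to 50 after the gene start) of the 9203 tested symbols that had an entry. TCATGTG was in 5.75% of promoters of genes that fell at least 2-fold (15 of 261), in 1.41% of those that rose (4 of 284), in 1.7% of all tested promoters and in 2.99% of all 27305 promoters in the table. CACGTG was in 9.96% of the falling, 5.99% of the rising, 10.5% of the tested and 7.43% of all promoters. TGACTCA was in 6.9%, 3.52%, 2.64% and 4.92% of the same sets. The shares are descriptions without a test, and a match is not a bound site.

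The promoters of the 6 named falling genes with the largest change that held either E-box are shown so that the motif, in capitals, can be seen in place, each 5′ to 3′ along its gene. TRIM63 (chr1:26067581-26067880, minus strand) was the one with TCATGTG, while GAGE13 (chrX:49331332-49331631, plus strand), BHLHE41 (chr12:26124988-26125287, minus strand), BIRC7 (chr20:63235655-63235954, plus strand), MLPH (chr2:237487001-237487300, plus strand) and ISG20 (chr15:88638766-88639065, plus strand) held CACGTG. The GAGE12G promoter is left out because most of it is identical to that of GAGE13.
GAGE13: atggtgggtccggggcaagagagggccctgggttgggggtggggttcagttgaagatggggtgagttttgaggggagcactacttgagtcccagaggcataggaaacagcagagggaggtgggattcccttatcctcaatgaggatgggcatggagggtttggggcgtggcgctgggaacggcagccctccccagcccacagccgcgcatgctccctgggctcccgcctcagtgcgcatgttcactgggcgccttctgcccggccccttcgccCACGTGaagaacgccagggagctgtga
TRIM63: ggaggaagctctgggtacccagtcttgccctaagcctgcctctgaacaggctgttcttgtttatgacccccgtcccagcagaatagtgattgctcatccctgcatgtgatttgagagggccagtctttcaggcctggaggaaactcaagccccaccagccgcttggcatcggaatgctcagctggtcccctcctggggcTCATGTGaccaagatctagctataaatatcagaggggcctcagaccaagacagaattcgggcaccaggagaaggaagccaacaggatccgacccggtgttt
BHLHE41: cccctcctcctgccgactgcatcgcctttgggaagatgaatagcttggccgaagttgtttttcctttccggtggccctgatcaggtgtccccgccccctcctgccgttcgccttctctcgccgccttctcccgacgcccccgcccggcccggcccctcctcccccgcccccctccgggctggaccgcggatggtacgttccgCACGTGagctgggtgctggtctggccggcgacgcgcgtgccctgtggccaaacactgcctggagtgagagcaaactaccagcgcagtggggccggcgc
BIRC7: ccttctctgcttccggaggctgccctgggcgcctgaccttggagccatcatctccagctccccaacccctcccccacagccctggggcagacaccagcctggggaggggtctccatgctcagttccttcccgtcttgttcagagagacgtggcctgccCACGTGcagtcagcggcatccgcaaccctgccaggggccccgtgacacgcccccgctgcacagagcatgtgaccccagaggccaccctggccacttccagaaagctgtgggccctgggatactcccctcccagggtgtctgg
MLPH: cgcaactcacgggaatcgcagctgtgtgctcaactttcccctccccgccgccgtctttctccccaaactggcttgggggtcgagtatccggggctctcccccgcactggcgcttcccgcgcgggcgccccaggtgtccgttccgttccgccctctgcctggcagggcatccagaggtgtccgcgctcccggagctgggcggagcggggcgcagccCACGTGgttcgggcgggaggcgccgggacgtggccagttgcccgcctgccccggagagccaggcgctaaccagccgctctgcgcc
ISG20: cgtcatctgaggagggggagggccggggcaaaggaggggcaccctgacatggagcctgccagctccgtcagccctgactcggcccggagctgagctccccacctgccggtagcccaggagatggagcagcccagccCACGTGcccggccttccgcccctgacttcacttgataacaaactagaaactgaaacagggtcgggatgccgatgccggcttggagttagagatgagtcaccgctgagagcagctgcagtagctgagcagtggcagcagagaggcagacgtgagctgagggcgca
TGACTCA was also in the promoters of the named falling genes ISG20, where it is left in lower case above, and GPNMB. Among named rising genes it was in the promoters of RAB3B (chr1:51990651-51990950, minus strand) and S100A3 (chr1:153549209-153549508, minus strand), where it is read on the opposite strand as TGAGTCA, again in capitals.
RAB3B: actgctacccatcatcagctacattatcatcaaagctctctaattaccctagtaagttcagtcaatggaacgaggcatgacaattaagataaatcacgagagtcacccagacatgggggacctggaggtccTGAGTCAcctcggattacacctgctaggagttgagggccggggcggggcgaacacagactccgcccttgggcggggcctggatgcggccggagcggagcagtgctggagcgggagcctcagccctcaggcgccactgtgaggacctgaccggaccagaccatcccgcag
S100A3: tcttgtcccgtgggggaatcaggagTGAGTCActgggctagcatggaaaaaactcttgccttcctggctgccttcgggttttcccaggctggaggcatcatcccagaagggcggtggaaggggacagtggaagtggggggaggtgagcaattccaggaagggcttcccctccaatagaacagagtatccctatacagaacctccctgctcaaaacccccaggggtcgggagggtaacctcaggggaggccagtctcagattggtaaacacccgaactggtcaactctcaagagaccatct

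Extracellular matrix genes rose together. Of 43 matrix genes, 19 were measured above the minimum, and 15 of these rose and 2 fell, with a median log2 fold change of 0.79 against 0.06 over all tested genes. CCN3, a matricellular protein, had 21.6, 25.9 and 24.1 TPM in the siCTRL libraries and 72.1, 73.1 and 68.4 TPM in the siMITF libraries and rose by 1.54, the matrilin MATN2 rose from 2.25 to 7.82 TPM (1.45), the laminin chain LAMA4 from 24.6 to 62.5 TPM (1.31), and the collagen chain COL9A3 from 88.1 to 204 TPM (1.2). SPP1 went the other way: osteopontin, a secreted ligand of integrins and CD44, had 107, 117 and 98.3 TPM in the siCTRL libraries and 27.3, 30.1 and 24.1 TPM in the siMITF libraries and fell (-1.94). LAMA1 fell from 41.3 to 29.97 TPM (-0.45), a call lost without siCTRL replicate 2 or siMITF replicate 3. Since 2 of the 19 entered through their siMITF level, the same count was made for the 17 genes at 2 TPM or more in both groups, of which 13 rose and 2 fell. The other 24 genes of the list were under the minimum in both groups.

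Enzymes that cut and crosslink matrix followed the same direction, with 14 of 22 measured genes higher and 1 lower (median 0.5). MMP15, a membrane-bound matrix metalloproteinase, had 9.08, 10.4 and 9.81 TPM in the siCTRL libraries and 46.8, 51.3 and 51.1 TPM in the siMITF libraries and rose by 2.24. LOXL3, a lysyl oxidase that crosslinks collagen, had 0.466, 0.461 and 0.454 TPM in the siCTRL libraries and 6.41, 6.77 and 5.79 TPM in the siMITF libraries and rose by 2.32. The membrane protease ADAM19 rose from 6.57 to 24.3 TPM (1.74), MMP16 from 3.46 to 12 TPM (1.54) and the gelatinase MMP2 from 10.2 to 27.8 TPM (1.37). The member that fell was TIMP2, an inhibitor of these proteases, by -0.4. At 2 TPM or more in both groups, 12 of 20 rose and 1 fell.

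Integrins, the receptors of matrix proteins, split: 7 of 11 measured chains rose and 3 fell. These were 63.6% and 27.3%, against 21.5% and 14.1% of all tested genes. ITGA1, a collagen-binding chain, had 1.23, 1.12 and 1.26 TPM in the siCTRL libraries and 9.1, 10.5 and 10.04 TPM in the siMITF libraries (2.3). ITGB5, a partner of the alpha-v chain, had 63.1, 77.1 and 65.5 TPM in the siCTRL libraries and 169, 186 and 182 TPM in the siMITF libraries (1.37), and the laminin-binding chain ITGA6 rose from 73.9 to 164 TPM (1.15). ITGA7, ITGA9 and ITGB8 fell (-1.03, -0.89 and -0.75). Of the 8 chains at 2 TPM or more in both groups 4 rose and 3 fell, and the other rises were in chains that were under 2 TPM in siCTRL libraries. Cell to cell adhesion genes gave 6 higher (66.7%) and 1 lower (11.1%) of 9. CDH2, the N-cadherin of mesenchymal and neural cells, had 0.728, 1.08 and 1.14 TPM in the siCTRL libraries and 4.59, 5.06 and 4.65 TPM in the siMITF libraries (1.55). NRCAM, a neural adhesion molecule, rose from 1.43 to 6.93 TPM (1.71), and CDH19, a cadherin of the glial lineage, from 13.9 to 40.9 TPM (1.5), while CDH3, P-cadherin, fell from 39.2 to 26.5 TPM (-0.55). Here 3 of 6 rose and 1 fell at 2 TPM or more in both groups.

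In the plot of gene lists the extracellular matrix, WNT, cell adhesion, annexin, integrin and YAP/TEAD lists have the highest medians. The pigment list and the list of other described MITF targets have the lowest medians. The lists plotted are those with at least 5 tested members.

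Targets of YAP and TAZ, the coactivators of TEAD factors that respond to cell shape and tension, rose in 12 of 19 measured genes and fell in 0 by limma, also at an unadjusted p under 0.05 (median 0.55). CCN1, a secreted matricellular protein, had 12.4, 16.4 and 13.6 TPM in the siCTRL libraries and 65.5, 83.5 and 79.6 TPM in the siMITF libraries and rose by 2.35. Its relative CCN2 rose from 14 to 31.8 TPM (1.13), the angiomotin AMOTL2 from 8.76 to 26.2 TPM (1.48), FJX1 from 4.3 to 15 TPM (1.59) and MYOF, a membrane repair protein, from 0.886 to 5.68 TPM (1.83). WWTR1, which encodes TAZ, is no member of the named genes and was looked up after its value was seen: it rose from 113 to 306 TPM (1.43). Of the 17 members at 2 TPM or more in both groups 10 rose and 0 fell. AXL, a receptor kinase on this list that is often used as a mark of dedifferentiated melanoma, stayed under the minimum with means of 0.104 to 0.319 TPM.

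Cytoskeletal genes had 13 of 32 higher and 4 lower. The rises were 40.6%, against 21.5% of all tested genes, and the falls 12.5%, near the 14.1% of all. TAGLN, an actin-binding protein of smooth muscle, had 0.597, 0.891 and 0.713 TPM in the siCTRL libraries and 5.33, 4.99 and 4.08 TPM in the siMITF libraries (1.74), and RND3, a small GTPase that loosens actin stress fibres, had 7.9, 11.8 and 9.36 TPM in the siCTRL libraries and 32, 32.8 and 29.6 TPM in the siMITF libraries (1.62). ACTN4 and CNN3, which bind actin filaments, rose by 0.72 and 0.67. VCL and FHL2, both found at focal adhesions, fell (-0.66 and -0.88), and the cytoplasmic actin ACTG1 fell (-0.52).

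Of TGF-β and BMP pathway genes, 13 of 25 measured rose and 0 fell by limma, 1 at an unadjusted p under 0.05 (median 0.37). PMEPA1, a target and feedback inhibitor of TGF-β signalling, had 10.7, 9.83 and 9.96 TPM in the siCTRL libraries and 33.3, 39.6 and 40.2 TPM in the siMITF libraries (1.79). SMURF2, a ubiquitin ligase for SMAD proteins and receptors, had 10.3, 12.6 and 11.5 TPM in the siCTRL libraries and 30.2, 31.9 and 27.2 TPM in the siMITF libraries (1.31). TGFBI, a secreted target, rose from 0.518 to 3.04 TPM (1.41), ID1, a BMP target, from 33.2 to 65.7 TPM (0.96), and the ligand TGFB1 from 22.1 to 39.2 TPM (0.8). The rises thus covered a ligand, targets and inhibitors.

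WNT pathway genes rose in 14 and fell in 2 of 22 measured (median 0.61). Among targets and DNA-binding partners, LEF1, the TCF family factor that recruits β-catenin, had 61, 74.1 and 66.1 TPM in the siCTRL libraries and 199, 198 and 172 TPM in the siMITF libraries (1.49). The inhibitors moved in the same direction: besides DKK1, NKD1 rose from 22.2 to 55.3 TPM (1.26), the secreted decoy SFRP1 from 12.7 to 28.7 TPM (1.12), and RNF43 and ZNRF3, ligases that remove the receptors, from 13.7 to 30.4 TPM (1.1) and 12.8 to 23.3 TPM (0.82). The receptor FZD6 fell from 20.1 to 8.35 TPM (-1.17), and CTNNB1, which encodes β-catenin, had 468, 501 and 508 TPM in the siCTRL libraries and 319, 333 and 326 TPM in the siMITF libraries (-0.59). Other receptors rose, FZD2 by 0.7, FZD7 by 0.69, the co-receptor LRP5 by 0.67 and FZD1 by 0.44, the last a call lost without siCTRL replicate 1 or siMITF replicate 2.

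Growth factors and their receptors divided by gene. Of 20 measured, 10 rose and 4 fell, and of the 14 at 2 TPM or more in both groups 5 rose and 3 fell. The 10 and 4 were 50% and 20%, against 21.5% and 14.1% of all tested genes. FGFR3, a fibroblast growth factor receptor, had 0.822, 0.976 and 1.08 TPM in the siCTRL libraries and 5.98, 5.81 and 5.5 TPM in the siMITF libraries (1.79), and the ligands PDGFC and KITLG rose from 2.26 to 10.1 TPM (1.77) and 5.61 to 14 TPM (1.18). KIT, the receptor of KITLG that melanocytes depend on, had 73.8, 88.3 and 88.4 TPM in the siCTRL libraries and 25, 31 and 27.2 TPM in the siMITF libraries and fell (-1.56), so ligand and receptor moved in opposite directions. MET, the receptor of hepatocyte growth factor, had 63.7, 77.2 and 73.2 TPM in the siCTRL libraries and 26, 30.2 and 25.6 TPM in the siMITF libraries (-1.35), and the TAM family receptor MERTK fell (-0.69). EGFR stayed at 0.0244 TPM or less in both group means.

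Semaphorins, ephrin receptors, plexins and neuropilins, which guide axons and neural crest cells, moved strongly both ways, with 16 of 29 higher and 7 lower. The shares were 55.2% and 24.1%, against 21.5% and 14.1% of all tested genes. At 2 TPM or more in both groups, 13 of 26 rose and 7 fell. SEMA3C, a secreted semaphorin, had 31.6, 44.1 and 38.6 TPM in the siCTRL libraries and 134, 153 and 139 TPM in the siMITF libraries (1.88). SEMA3A rose from 8.51 to 29.97 TPM (1.71), SEMA3B from 1.13 to 7.27 TPM (1.96), the ephrin receptor EPHB3 from 2.12 to 10.7 TPM (1.91), and NRP1, a co-receptor of class 3 semaphorins, from 2.53 to 7.3 TPM (1.24). The transmembrane semaphorins SEMA6A and SEMA5A fell from 40.6 to 11 TPM (-1.8) and 74.4 to 26 TPM (-1.48). The plexins, receptors of semaphorins, PLXNC1 and PLXNA1 fell from 74 to 22.5 TPM (-1.68) and 46.1 to 19.5 TPM (-1.2). Each of the 4 largest rises outside the ephrin receptors and co-receptors was a secreted class 3 semaphorin, and the named falls were transmembrane proteins.

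MAPK targets and feedback regulators rose in 10 and fell in 5 of 22, or fell in 3 without siCTRL replicate 2 or 3 or siMITF replicate 1. The 10 and 5 were 45.5% and 22.7%, against 21.5% and 14.1% of all tested genes. SPRY2, an inhibitor of receptor signalling, had 26.9, 33.9 and 29.8 TPM in the siCTRL libraries and 72.4, 75 and 71.9 TPM in the siMITF libraries (1.25), and SPRY4, SPRY1 and SPRED1 rose by 0.88, 0.6 and 0.6. HMGA2, a chromatin architectural protein, had 55.4, 64.9 and 58.5 TPM in the siCTRL libraries and 19.1, 19.2 and 18.7 TPM in the siMITF libraries (-1.6), and the immediate early factor EGR1 had 16.6, 24.4 and 20.8 TPM in the siCTRL libraries and 6.61, 9.43 and 7.47 TPM in the siMITF libraries (-1.29). Transcription factors of this list went both ways, since EGR3 also fell (-0.65) while ETV4 and EGR2 rose by 0.32 and 0.33. The EGR3 call was lost without siCTRL replicate 2 or 3 or siMITF replicate 1 or 2, and the EGR2 call without siCTRL replicate 1 or 3 or siMITF replicate 1. Among 13 AP-1 subunits 4 rose (30.8%) and 3 fell (23.1%), and of the 11 at 2 TPM or more in both groups 3 rose and 3 fell. JUN had 6.16, 8.26 and 6.38 TPM in the siCTRL libraries and 17.3, 19.96 and 18.7 TPM in the siMITF libraries (1.32), JUND rose from 33.7 to 68.9 TPM (1.01) and FOSL1 from 22.6 to 33.5 TPM (0.55), while MAFF, JUNB and FOS fell (-0.58, -0.52 and -0.45).

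Annexins and S100 proteins, calcium-binding proteins of membranes and the cytosol, rose in 11 and fell in 3 of 16 (median 0.58). S100A4, a motility-associated member, had 3.92, 5.43 and 3.83 TPM in the siCTRL libraries and 26.9, 29.9 and 28.9 TPM in the siMITF libraries. S100A1 rose from 90.2 to 239 TPM (1.4), and S100B, a marker of melanocytic and glial cells, from 81.8 to 167 TPM (1.02), so this lineage marker rose where the pigment genes fell. ANXA5 fell from 1098 to 632 TPM (-0.8) while ANXA1 rose. In the insulin and IGF list 5 of 9 rose and 0 fell by limma, also at an unadjusted p under 0.05, with the receptor adaptors IRS1 and IRS2 going from 7.43 to 22.4 TPM (1.47) and 17.5 to 36.8 TPM (1.03).

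NF-κB target genes rose more often than they fell, among chemokines and other members. Of those measured 43.8% rose and 12.5% fell, against 21.5% and 14.1% of all tested genes. Of 31 genes only 16 reached the minimum, 7 of these rose and 2 fell, and of the 12 at 2 TPM or more in both groups 4 rose and 2 fell. After CCL2 the chemokine CXCL1 rose from 1.14 to 4.95 TPM (1.49), and CXCL8, a neutrophil attractant, had 17.1, 29.2 and 15.7 TPM in the siCTRL libraries and 37.8, 40.2 and 33.7 TPM in the siMITF libraries (0.87). BCL3 and NFKB2, members of the pathway itself, rose by 1.34 and 0.7. TNFAIP3, the A20 inhibitor of the pathway, had 94.6, 97.4 and 95.8 TPM in the siCTRL libraries and 37.5, 38.2 and 37.2 TPM in the siMITF libraries (-1.33), and NFKBIZ fell (-0.85).

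Without any added interferon, interferon-stimulated genes were lower more often than higher: 10 of 26 measured fell, 5 rose and the median was -0.18. The falls were 38.5%, against 14.1% of all tested genes, and the rises 19.2%, near the 21.5% of all. At 2 TPM or more in both groups, 9 of 20 fell and 2 rose. ISG20, an exonuclease, had 101, 103 and 94 TPM in the siCTRL libraries and 19.5, 15.8 and 18.9 TPM in the siMITF libraries (-2.4), and IFI6, an inhibitor of cell death, had 157, 167 and 154 TPM in the siCTRL libraries and 86.1, 77.1 and 77.9 TPM in the siMITF libraries (-0.98). IRF9, a subunit of the interferon-activated transcription factor ISGF3, and PARP9 fell (-0.69 and -0.83). The IFITM family of membrane proteins went the other way, with IFITM1 at 1.71, 0.71 and 1.34 TPM in the siCTRL libraries and 6.99, 5.38 and 6.92 TPM in the siMITF libraries (1.74), IFITM2 rising from 0.713 to 3.27 TPM (1.32) and IFITM3 from 306 to 525 TPM (0.77). IFITM1 and IFITM2 were under 2 TPM in siCTRL libraries, so they entered the test through their siMITF level. In the MHC class I pathway 2 of 14 rose and 4 fell, none of them 2-fold, and with any single library left out 1 or 2 rose and 1 or 2 fell. The 2 and 4 were 14.3% and 28.6%, against 21.5% and 14.1% of all tested genes. PDIA3, an enzyme of peptide loading and glycoprotein folding, had 507, 564 and 500.4 TPM in the siCTRL libraries and 276, 317 and 293 TPM in the siMITF libraries (-0.82).

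Of 41 measured genes described as MITF targets outside pigment synthesis, 33 fell, 23 of them at least 2-fold, and 4 rose (median -1.23). The list was drawn from earlier accounts of MITF, so its direction describes the knockdown and is not a separate result. IRF4, a transcription factor of the melanocyte and lymphoid lineages, had 12.5, 14.5 and 13.1 TPM in the siCTRL libraries and 1.07, 1.69 and 1.25 TPM in the siMITF libraries (-2.63). BIRC7, the apoptosis inhibitor livin, had 101, 102 and 93.7 TPM in the siCTRL libraries and 15.5, 15.8 and 14.7 TPM in the siMITF libraries (-2.61). MBP, myelin basic protein, fell from 69.4 to 12.6 TPM (-2.38) and TNFRSF14, a receptor that binds LIGHT and BTLA, from 70.8 to 13.1 TPM (-2.35). PPARGC1A, the coactivator of mitochondrial genes, had 24.1, 29.8 and 30.4 TPM in the siCTRL libraries and 10.3, 10.8 and 11.1 TPM in the siMITF libraries (-1.3). Members that rose were the CDK5 activator CDK5R1 (1.17), CDK14 (0.84) and the RAP exchange factor RAPGEF4 (0.66).

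In the MITF family, TFEB, which drives lysosomal genes, fell from 7.32 to 2.75 TPM (-1.15), and TFE3 had 27, 29.3 and 27.6 TPM in the siCTRL libraries and 35.3, 38.4 and 35.3 TPM in the siMITF libraries (0.37), a call that was lost without siCTRL replicate 1, siCTRL replicate 3 or siMITF replicate 2. Neural crest and lineage factors went both ways, 6 higher and 5 lower of 15, with 3 lower without siCTRL replicate 2, siMITF replicate 1 or siMITF replicate 3. The 6 and 5 were 40% and 33.3%, against 21.5% and 14.1% of all tested genes. SNAI2, a factor of neural crest migration, had 38.7, 42.8 and 43.2 TPM in the siCTRL libraries and 16.9, 16 and 15.2 TPM in the siMITF libraries (-1.32), and the endothelin receptor EDNRB fell from 169 to 97.1 TPM (-0.8). TFAP2C rose from 2.09 to 6.04 TPM (1.19), SOX5 from 13.8 to 26.6 TPM (0.89) and SOX4 from 15.9 to 26 TPM (0.68), each a transcription factor of neural crest or progenitor cells. SOX10 went from 263 to 226 TPM (-0.22, adjusted p = 0.047 from limma), a call lost with any 1 library left out. NGFR, a neural crest receptor widely used to mark dedifferentiated melanoma, had means of 0.138 to 1.97 TPM, just under the minimum.

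Cell death genes of the BCL2 family had no common direction: 5 of 16 rose and 3 fell. These were 31.25% and 18.75%, against 21.5% and 14.1% of all tested genes. The list median of 0.08 was close to the 0.06 of all tested genes. BID, a trigger of the mitochondrial pathway, had 36.3, 36.1 and 33 TPM in the siCTRL libraries and 8.03, 10.9 and 10.7 TPM in the siMITF libraries (-1.74), and BCL2A1, an anti-apoptotic relative of BCL2 and a described MITF target, had 21, 24.5 and 20.5 TPM in the siCTRL libraries and 6.58, 7.16 and 5.58 TPM in the siMITF libraries (-1.63). BMF, a pro-apoptotic protein released from the cytoskeleton, had 4.03, 5.26 and 5.21 TPM in the siCTRL libraries and 12.7, 13.3 and 12.8 TPM in the siMITF libraries (1.26), and HRK, another pro-apoptotic member, fell from 6.49 to 2.12 TPM (-1.27). Pro-apoptotic genes were thus found in both directions.

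Lysosomal genes fell in 17 and rose in 8 of 44, all measured, or rose in 5 without siCTRL replicate 1 or 3 or siMITF replicate 1 or 2, and the median of -0.01 was close to that of all genes. CTSL, the protease cathepsin L, had 269, 299 and 263 TPM in the siCTRL libraries and 87.2, 87 and 80.2 TPM in the siMITF libraries (-1.7), CTSH fell from 85.3 to 34.8 TPM (-1.27), GM2A, a ganglioside activator protein, from 22.4 to 8.05 TPM (-1.37) and the abundant tetraspanin CD63 from 1424 to 780.4 TPM (-0.87). The acid α-glucosidase GAA and the fucosidase FUCA1 rose by 0.86 and 0.65. Of 17 subunits of the V-ATPase, the proton pump that acidifies lysosomes and melanosomes, 7 fell and 2 rose. ATP6V0E1 had 193, 202 and 181 TPM in the siCTRL libraries and 49.8, 51.3 and 44.7 TPM in the siMITF libraries (-1.96), while its paralog ATP6V0E2 rose from 69.5 to 115 TPM (0.71). ATP6V1G1, ATP6V1C1 and ATP6V0D1 fell (-0.88, -0.7 and -0.66).

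Autophagy and mTORC1 genes had 11 of 26 lower and 3 higher. BECN1, a subunit of the lipid kinase that starts autophagosomes, had 84.7, 102 and 90.8 TPM in the siCTRL libraries and 36.7, 40.1 and 34.2 TPM in the siMITF libraries (-1.3), and the cargo receptor SQSTM1 had 423, 481 and 415 TPM in the siCTRL libraries and 224, 249 and 217 TPM in the siMITF libraries (-0.93). FNIP2 and RRAGD, which act on mTORC1 at the lysosome, fell from 29.7 to 11.5 TPM (-1.3) and 36.3 to 18.1 TPM (-0.97). ATG9A, a membrane protein of autophagosome formation, rose from 46.6 to 77 TPM (0.71). Of the lysosomal, V-ATPase and autophagy lists 38.6%, 41.2% and 42.3% fell, against 14.1% of all tested genes.

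Of 23 measured glycolytic genes 10 fell and 0 rose by limma, 1 at an unadjusted p under 0.05 (median -0.2). ENO2, the neuronal enolase, had 124, 128 and 122 TPM in the siCTRL libraries and 54.3, 60.5 and 54.4 TPM in the siMITF libraries (-1.13), PFKFB3, which makes an activator of phosphofructokinase, fell from 22.6 to 12.7 TPM (-0.77), and the hexokinase HK2 from 77.3 to 50.6 TPM (-0.6). Of 49 nuclear respiratory chain genes 5 fell, or 8 without siCTRL replicate 3, and 2 rose, none 2-fold, although PPARGC1A fell. The 5 were 10.2% of the list, below the 14.1% of all tested genes that fell. Of the 13 mitochondrially encoded genes 0 passed by limma, and 0 did at an unadjusted p under 0.05. Of 17 genes of the TCA cycle 3 fell (17.6%, near the 14.1% of all tested genes), and 0 to 2 did with a library left out. IDH3A fell the most (-0.31, lost in 4 of the 6 fits without a library). Among hypoxia response genes BNIP3L, a mitophagy receptor, fell from 46.7 to 18.3 TPM (-1.31), with 5 of 14 lower and 2 higher, or 1 higher when any library but siCTRL replicate 2 was left out. The 5 and 2 were 35.7% and 14.3%, against 14.1% and 21.5% of all tested genes.

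Lipid synthesis did not move as one list. Of measured sterol genes 13% rose and 21.7% fell, and of fatty acid genes 33.3% and 26.7%. Over all tested genes these shares were 21.5% and 14.1%. Sterol genes had 3 of 23 higher, or 1 without siCTRL replicate 1, and 5 lower, or 3 without siMITF replicate 3, with TM7SF2, a sterol reductase, rising from 4.89 to 14.7 TPM (1.41) and INSIG1, a brake on sterol synthesis, falling from 44.4 to 32.8 TPM (-0.43). In fatty acid synthesis 5 of 15 rose and 4 fell: the acetate-activating enzyme ACSS2 rose from 15.5 to 33.5 TPM (1.07), and the desaturases went in opposite directions, FADS2 from 5.04 to 11.4 TPM (1.04) and SCD from 180.4 to 121 TPM (-0.57).

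Among amino acid response genes driven by ATF4, 10 of 28 fell and 5 rose, while 4 to 6 fell without siCTRL replicate 2, siMITF replicate 1 or siMITF replicate 3 and 3 rose without siCTRL replicate 3 or siMITF replicate 2. The 10 were 35.7%, against 14.1% of all tested genes, and the 5 were 17.9%, near the 21.5% of all. SLC1A5, a glutamine transporter, had 168, 176 and 169 TPM in the siCTRL libraries and 399.5, 419 and 392 TPM in the siMITF libraries and rose by 1.23. The glycyl-tRNA synthetase GARS1 had 190.2, 204 and 200.2 TPM in the siCTRL libraries and 78.7, 87.2 and 75.5 TPM in the siMITF libraries (-1.29), and PSAT1, of serine synthesis, fell from 13.4 to 5.86 TPM (-1.07). Chaperones of the unfolded protein response had 5 of 19 lower and 0 higher by limma, also at an unadjusted p under 0.05, with SDF2L1 going from 133 to 73.9 TPM (-0.83). In the redox and iron list 8 of 22 fell and 5 rose, or 3 rose in the fits without siCTRL replicate 1 or 3 or any siMITF library. The 8 were 36.4%, against 14.1% of all tested genes, and the 5 were 22.7%, near the 21.5% of all. FTH1, the heavy chain of ferritin and one of the most abundant transcripts, had 4247, 4374 and 4337 TPM in the siCTRL libraries and 1235, 1447 and 1357 TPM in the siMITF libraries (-1.68), OSGIN1, an oxidative stress target, fell from 32.4 to 12.1 TPM (-1.35), and HMOX1, a heme-degrading enzyme, from 37.9 to 22.9 TPM (-0.7).

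Of 43 replication genes 7 fell (16.3%, near the 14.1% of all tested genes) and 2 rose (median -0.07). Without siCTRL replicate 2 or siMITF replicate 3, 4 fell. CHAF1B, a subunit of the chromatin assembly factor, had 26.9, 29.9 and 28.7 TPM in the siCTRL libraries and 13.4, 14.5 and 13 TPM in the siMITF libraries (-1.01), and the helicase subunit MCM4 fell from 97.7 to 66.7 TPM (-0.54). Of 41 mitotic genes 8 rose (19.5%, near the 21.5% of all tested genes) and 2 fell, each by less than 2-fold. When any library but siCTRL replicate 2 was left out, 2 to 4 rose. CDC20, an activator of the anaphase-promoting complex, rose from 168 to 217 TPM (0.37), and CKAP2 fell (-0.57). CDK2, a kinase of the passage from G1 to S phase that stands among the described MITF targets, fell from 520.5 to 193 TPM (-1.43), and CCNE2, one of its cyclins, from 22.9 to 15.4 TPM (-0.54), a call lost without siCTRL replicate 2 or siMITF replicate 3. Of the list of G1 regulators, which holds neither CDK2 nor CCNE2, 8 of 13 rose and 0 fell by limma, 1 at an unadjusted p under 0.05 (median 0.37). CDKN2B, an inhibitor of CDK4 and CDK6, had 9.62, 9.97 and 8.08 TPM in the siCTRL libraries and 20.4, 19.6 and 18.5 TPM in the siMITF libraries (1.01), CDKN2C rose from 31 to 57.8 TPM (0.88) and CDKN2A from 126 to 182 TPM (0.53). CDKN1A, the inhibitor p21, had means of 0.0893 to 0.0301 TPM. DNA repair genes had 2 higher and 1 lower of 22, or 1 or 2 higher and 0 lower with a library left out. Ribosomal protein genes had 3 higher and 3 lower of 34, or 1 to 4 higher and 1 to 3 lower with a library left out. Of the repair and ribosomal lists 9.09% and 8.82% rose, below the 21.5% of all tested genes. In the same lists 4.55% and 8.82% fell, below 14.1%.

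Markers of other cell types were at or near 0 in both groups where they define a type. Among keratinocyte markers KRT1 and KRT5 were listed at 0, and KRT14, KRT15 and DSG3 had group means of at most 0.146 TPM. The endothelial markers PECAM1, VWF, CDH5, KDR and CLDN5 had group means of at most 0.499 TPM and the fibroblast collagens COL1A2 and COL3A1 of at most 0.0644 TPM. Of the leukocyte markers CD3E was listed at 0 and PTPRC had group means of at most 0.212 TPM. Of the fibroblast, keratinocyte, endothelial and leukocyte lists 2, 1, 0 and 2 genes reached the minimum, and their part in the results was not tested. These were KRT10, which did not pass (-0.07), PDGFRA, which rose by 0.98, LUM, which had 0.46 and lost its call in 4 of the 6 fits without a library, LYZ, which rose by 0.74, and CD68, a lysosomal protein, which fell from 71.5 to 27.3 TPM (-1.34).

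The same siRNAs were compared again in the 6 libraries with IFNγ, none of which entered the group means and differences above, although all 12 libraries set the spread in both tests. There 2186 genes rose (17.6% of the 12424) and 1835 fell (14.8%). Of the 411 genes that had risen at least 2-fold without IFNγ, 408 kept the sign and 392 passed higher again (95.4%), at a median of 1.2 against 1.34. Of the 368 that had fallen, 366 kept the sign and 357 passed lower again (97.0%), at a median of -1.26 against -1.36. Over all tested genes 82.5% had the same sign in both comparisons. The repeat used the same single siRNA against MITF, so it cannot show whether a change is particular to that siRNA. Same-numbered libraries also varied together, with correlations from 0.0975 to 0.62 over 18 pairs after removing condition means. The 2 comparisons are thus not fully independent. CCL2 had 15.3, 17.1 and 12.7 TPM in siCTRL and 158, 134 and 117 TPM in siMITF libraries with IFNγ, a log2 fold change of 3.1, and ANXA1, DKK1 and TRIM63 had 3.12, 3.44 and -4.98.

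Of measured matrix genes 14 rose and 3 fell with IFNγ, of YAP/TEAD targets 10 and 0, of TGF-β genes 14 and 0, and of WNT genes 13 and 2. The counts of other lists were less alike, as mitotic genes had 0 higher and 5 lower, DNA repair genes 1 higher and 8 lower where they had 2 and 1, TCA cycle genes 0 lower where they had 3, and MHC class I genes went from 2 higher and 4 lower to 8 higher and 1 lower, with an interaction that passed for 2 of the 14. The difference between the knockdown effects with and without IFNγ, tested as an interaction, passed for 46 of all tested genes (0.37%) and for 28 of the 779 changed ones, or 9 to 16 when 1 of the 6 libraries was left out. In the plot of the 2 comparisons most changed genes lie near the line of equal change.

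**Figure D3:**
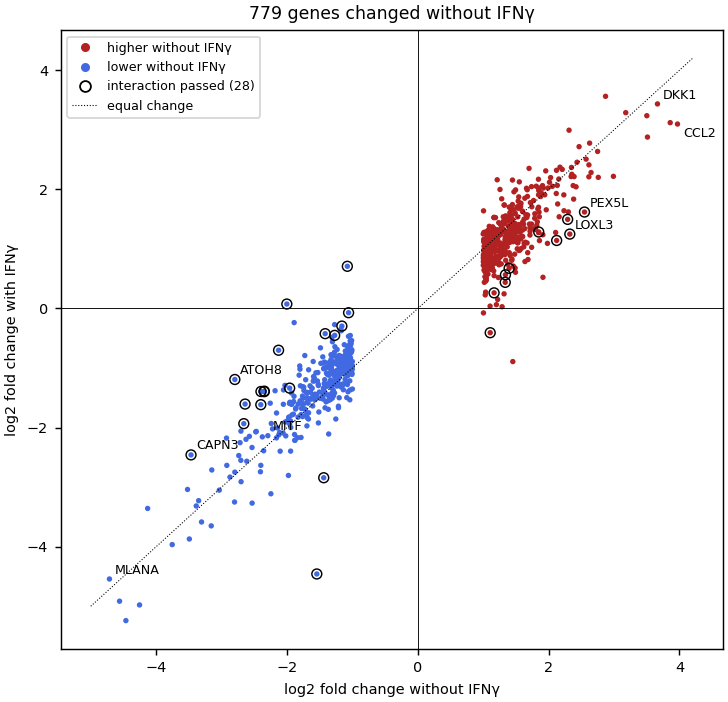
Log2 fold change of siMITF over siCTRL without IFNγ (x axis) and with IFNγ (y axis) for the 779 genes changed without IFNγ; red genes rose and blue genes fell without IFNγ, open black circles mark the 28 with a passed interaction and the dotted line marks equal change. The x values were used to choose the genes and the y values were not; 774 of the 779 have the same sign on both axes.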

How the data were processed

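The authors trimmed reads with Trimmomatic 0.39, quantified transcripts with kallisto 0.46.1 on the GRCh38 transcriptome of Ensembl, summed them to genes and deposited TPM for 12 libraries, 3 in each of 4 conditions. They tested counts with DESeq2 1.26.0, which are not used here. The Ensembl release is not given in the sources used here. From the deposited TPM, log2(TPM + 1) was fitted with limma 3.58.1 in R 4.3.3, 1 coefficient per condition, with empirical Bayes moderation and an intensity trend, two-sided, adjusted over the 12424 IDs. Symbols came from GENCODE version 44, with none for 971 tested IDs. In all, 489 tested IDs had the same values as another ID, and 12980 IDs were listed at 0 in all 6 libraries. No pair of libraries was identical. The fit was tested on simulated data. Tables and figures used Python 3.11.15, pandas 2.3.3, numpy 2.4.6 and matplotlib 3.10.9.

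Gene lists, members and the comparison were chosen with earlier results of these data known, and no list was tested as a set. Genes named were MITF, list members, and outside the pigment list the 20 largest rises and 20 largest falls whose libraries did not overlap, and of a list's members mainly the 4 largest changes per direction. Promoters were printed for up to 6 falling and 3 rising named genes, taking the first entry of a symbol. The alternatives tried are given with their effect in the closing section. Group columns of the table were matched to samples by title. A few genes and 1 gene list are not reported here.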

Additional observations from a re-analysis of the deposited data

Results flagged for a closer look

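For 9 genes of this report the knockdown changed expression by a different amount with IFNγ than without it. The test was limma's interaction, adjusted over 12424 genes. MT2A among them was chosen after its values were seen. The value given is the change with IFNγ minus the change without it, on the log2 scale. ATOH8 fell by less with IFNγ, -1.19 against -2.8, an interaction of 1.6 (adjusted p = 9.0e-04, limma). In siCTRL libraries with IFNγ it had 35.7, 41.3 and 37.2 TPM, above the 12.6, 12.8 and 12.6 TPM without IFNγ. CAPN3 went from -3.47 to -2.46 (interaction 1.01), TNFRSF14 from -2.35 to -1.39 (0.96), PARP9 from -0.83 to 0.05 (0.88) and ISG20 from -2.4 to -1.62 (0.78). In 4 genes that rose, the rise was smaller with IFNγ: LOXL3 went from 2.32 to 1.25 (-1.07), PEX5L from 2.55 to 1.62 (-0.93), MT2A from 1.85 to 1.28 (-0.56) and IFITM3 from 0.77 to 0.27 (-0.51). LOXL3 had the highest adjusted p of the 9 genes (0.042, limma). Among all changed genes 28 interactions passed, and 9 to 16 did when 1 of the 6 libraries was left out. No group had more than 3 libraries, so single libraries were not screened for distance from the others.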

How the results depend on the processing

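The number of changed genes, 779, stayed between 557 and 995 over 19 alternatives: 995 and 878 with pseudocounts of 0.1 and 0.5, 814 with no filter on low values, 642 with a minimum of 5 TPM, 756 after quantile normalization, 770 after centring, 812 without mitochondrial genes and 767 at an adjusted p under 0.01. With 2 TPM required in both groups, an alternative added after seeing the data, 264 rose and 293 fell where 411 and 368 had. The balance of changed genes also turned after quantile normalization, with 332 higher and 424 lower, and after centring, with 381 and 389. With a pseudocount of 0.1 it stayed, with 551 and 444. At the adjusted p alone, 2952 rose and 2700 fell after quantile normalization where 2666 and 1747 had. At an adjusted p under 0.01, 1720 rose and 1223 fell. Leaving out 1 library gave 774 to 788 changed genes. Over the alternatives that could change it, 92.6% to 97.6% of rising and 95.5% to 98.0% of falling genes passed again with IFNγ. Interactions passed for 28 changed genes, for 90 after quantile normalization, 66 after centring and 60 without mitochondrial genes. With the replicate block (the number as a term) 786 genes changed and 84 had an interaction, 20 mitotic genes rose, 11 nuclear respiratory chain genes and 11 chaperones fell. At the adjusted p alone, 3654 genes rose and 2388 fell with this block, where 2666 and 1747 had. The main fit did not take the numbers as pairs, since the lowest correlation between same-numbered libraries was 0.0975 after removing condition means. The median was 0.29 for same-numbered and -0.2 for other libraries, and 12 of 12 libraries correlated best with their own number. The libraries thus show a replicate structure that the main fit leaves out. Of 480 list or named genes that passed, 390 kept the call in all 19 alternatives and 0 reversed direction. TPM give no depth, so values near 0 cannot be told from absence.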

Other observations

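Several gene families outside the lists moved, and all genes in these paragraphs were chosen after their values were seen. All 5 measured members of the GAGE family, cancer-testis antigens on chromosome X, fell, with a median of -2.80 that ran from -3.04 to -2.61 over the alternatives. GAGE13 had 97.7, 100.4 and 93.2 TPM in the siCTRL libraries and 3.52, 3.76 and 3.09 TPM in the siMITF libraries and GAGE2E had 146, 144 and 114 TPM in the siCTRL libraries and 13.9, 25.8 and 17.1 TPM in the siMITF libraries. These copies are nearly identical, so how reads were divided among them is uncertain. MAGEC1, another cancer-testis antigen, had 23.7, 26.6 and 24.8 TPM in the siCTRL libraries and 1.74, 2.33 and 1.75 TPM in the siMITF libraries (-3.15), but of the 19 measured MAGE genes 8 fell, 2 rose and the median was -0.09. Of 20 measured HOX genes, which pattern the body axis, 11 rose and 0 fell by limma, also at an unadjusted p under 0.05, none of them 2-fold, with 8 to 15 higher and 0 lower over the alternatives. HOXC9 went from 8.78 to 14.5 TPM (0.66). The homeobox genes DLX1 and DLX2, of craniofacial neural crest and forebrain, rose from 17.7 to 73.2 TPM (1.99) and 2.58 to 15 TPM (2.17).

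SCG2, a granin, had 3.29, 3.5 and 3.3 TPM in the siCTRL libraries and 15.3, 13.8 and 14.2 TPM in the siMITF libraries (1.82), the microtubule protein MAP2 rose from 21.7 to 67.7 TPM (1.6) and the stathmin STMN3 from 46.8 to 151 TPM (1.67). Genes of hedgehog signalling, the factors GLI2 and GLI3 and the receptor and target PTCH1, rose from 0.509 to 3.58 TPM (1.64), 6.31 to 19.2 TPM (1.46) and 4.2 to 13.8 TPM (1.48). The metallothioneins MT2A and MT1X, which bind zinc and copper, rose from 197 to 711 TPM (1.85) and 54 to 134 TPM (1.3). ABCB1, a drug efflux pump, had 2.94, 2.19 and 2.32 TPM in the siCTRL libraries and 14.2, 15.6 and 12.7 TPM in the siMITF libraries (2.12), while its relative ABCB5 fell. Among abundant genes that fell, NRAS, the small GTPase of the MAPK pathway, had 124, 142 and 132 TPM in the siCTRL libraries and 31.8, 36.7 and 33.7 TPM in the siMITF libraries (-1.93), SDCBP, the adaptor syntenin, had 895, 1027 and 887 TPM in the siCTRL libraries and 207, 223 and 196 TPM in the siMITF libraries (-2.16), TBC1D7, a subunit of the TSC complex, fell from 332 to 56.5 TPM (-2.53) and MYL12B, a myosin light chain, from 170.1 to 27.7 TPM (-2.57). In the libraries with IFNγ the changes of NRAS, SDCBP, TBC1D7 and MYL12B were -1.6, -1.75, -2.33 and -2.15.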
